A study of Mus musculus with 8 samples.

Results

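The genes described here carry out and regulate the synthesis of cholesterol and fatty acids in mouse bone marrow-derived macrophages. They are a list of 39 gene symbols. A listed gene was kept if it reached at least 1 RPKM (reads scaled by exon length and by library depth) in at least 2 of the 8 libraries, and all 39 were kept, out of 24940 genes in the table and 11040 that passed the same filter. The cells were grown from the marrow of C57BL/6 mice aged 6 to 8 weeks, with macrophage colony-stimulating factor (M-CSF, 30 ng/ml), and are the precursors from which osteoclasts, the cells that resorb bone, can form. There were 4 groups of 2 libraries each. Cells with the hairpin labelled NCsh and cells with the hairpin labelled TMBIM6sh, which targets Tmbim6, a membrane protein of the endoplasmic reticulum, were each profiled without RANKL and with RANKL (receptor activator of NF-kappaB ligand, the osteoclast-inducing cytokine, 100 ng/ml for 24 h). Each side is 1 hairpin, so the identity of the hairpin and the loss of its target cannot be told apart. Whether duplicates are separate mice or cultures is not in the labels, so the p-values measure only the spread between these libraries, which may be technical.

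Cholesterol is built from acetyl-CoA through mevalonate, isoprenoid units and squalene, and then through a chain of sterol intermediates on the endoplasmic reticulum. Fatty acids are built from the same acetyl-CoA by acetyl-CoA carboxylase and fatty acid synthase. Once coupled to coenzyme A by acyl-CoA synthetases, they can be lengthened by elongases and given double bonds by desaturases. Most of these genes are known targets of the sterol regulatory element-binding proteins (SREBPs), the transcription factors encoded by Srebf1 and Srebf2. When sterols are plentiful, the INSIG proteins hold the SREBPs and their escort SCAP in the endoplasmic reticulum, and when sterols are scarce the complex moves to the Golgi, where proteases release the active factor.

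Tmbim6 itself was read at 330 and 334 RPKM in the NCsh libraries without RANKL and at 309 and 321 RPKM with it. In the TMBIM6sh libraries it was read at 11.1 and 11.7 RPKM without RANKL and at 10.0 and 10.5 RPKM with it, which is 3.18% to 3.53% of the NCsh mean of the same RANKL state. Depth, read from the steps between low values, ran from 25475000 to 28600000 reads per library, and the lowest of the 39 genes in any library still rested on 32 reads. All 10 macrophage markers passed the filter, and they too moved with both factors. Their summed level was 10146 to 11710 RPKM in untreated and 9919 to 10009 in RANKL-treated NCsh cells, against 9372 to 9378 and 8201 to 8865 in TMBIM6sh cells. Lyz2 alone, at 5280 to 8071 RPKM, was the largest part of each sum. Of the 10, 5 were lower with RANKL in each hairpin, beside 3.98% of all genes tested in NCsh and 6.89% in TMBIM6sh cells. In TMBIM6sh cells 1 was lower without RANKL and 3 with it, beside 13.8% and 19.7% of all genes. The summed markers of adipocytes (at most 0.125 RPKM), erythroid cells (at most 0.103), lymphocytes (at most 0.212) and mast cells (0 in every library) were at or near 0, and Adipoq and Lep were at 0 throughout. Summed dendritic cell markers reached 1.13 RPKM. Summed stromal markers were at 3.15 to 3.86 RPKM in untreated and 3.72 to 3.73 RPKM in RANKL-treated NCsh cells. In TMBIM6sh cells they were at 4.57 to 4.82 and 4.09 to 4.67 RPKM, higher in both states. Of the 3 stromal markers tested, 0 were called in either hairpin comparison. Of 7 neutrophil markers S100a8 alone passed the filter (11.3 to 27.7 RPKM) and was lower in TMBIM6sh cells, at -0.86 without RANKL and -0.85 with it (adjusted p = 0.00351 and 0.00326), while the others were at 0.236 RPKM or less. A list of 20 cell division genes moved with both factors. Its summed level was 449 to 471 RPKM in NCsh cells without RANKL and 605 to 616 with it, against 388 to 394 and 469 to 484 in TMBIM6sh cells. The part of cell division, macrophage markers, stromal markers and S100a8 in the results below was not tested. In bulk RNA fewer cells of a type and less RNA per cell cannot be told apart.

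The promoters of these genes show which SREBP-related letters lie around their starts, before or shortly after them. RefSeq (GRCm38.p6) windows from 250 bases before to 50 bases after a transcription start were matched to 32 of the 39 genes, in 42 windows. Fdps, Fdft1, Sqle, Stard4, Scd1, Scd2 and Fads1 are named only. A sterol element, searched as TCACNCCAC on both strands, occurred in 2 of the 42 windows (4.76%, against 1.24% of 32851 windows of all genes). Those were the window of Hmgcs1, 137 bases before the start, and start number 2 of Acsl1, 76 bases before it, on the minus strand and 19929 bases inside the gene from the start given in the table. The NF-Y box CCAAT, the site of a factor that works beside SREBPs, occurred in 27 windows (64.3%, against 37.4%). The E-box CACGTG occurred in 7 (16.7%, against 7.15%) and the GC box GGGCGG in 31 (73.8%, against 35.7%). Matches of different motifs overlapped in 1 pair. The windows of all genes were not limited to genes that passed the expression filter, as all 39 did, so these shares are not like for like. A match is a description of letters and not evidence of binding.

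The 200 bases upstream of a start are printed 5′ to 3′ in the direction of transcription for 5 genes, chosen because they hold the sterol element or passed the test in at least 3 comparisons. Capitals mark the sterol element and the CCAAT boxes on either strand. The Hmgcs1 stretch (chr13:119690151-119690350, plus strand) holds the sterol element and a CCAAT box on each side of it, that of Idi1 (chr13:8885406-8885605, plus strand) has 2 boxes close to the start, and that of Fasn (chr11:120824548-120824747, minus strand) has 3, of which 2 overlap. The Insig2 stretch (chr1:121332590-121332789, minus strand) has 3 boxes, and start number 2 of Acsl1 (chr8:46490766-46490965, plus strand) has the sterol element between 2 boxes.
Hmgcs1: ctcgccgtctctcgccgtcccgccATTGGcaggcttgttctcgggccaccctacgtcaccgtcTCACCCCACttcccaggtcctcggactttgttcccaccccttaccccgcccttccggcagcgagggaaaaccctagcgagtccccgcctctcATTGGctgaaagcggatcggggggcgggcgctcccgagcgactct
Idi1: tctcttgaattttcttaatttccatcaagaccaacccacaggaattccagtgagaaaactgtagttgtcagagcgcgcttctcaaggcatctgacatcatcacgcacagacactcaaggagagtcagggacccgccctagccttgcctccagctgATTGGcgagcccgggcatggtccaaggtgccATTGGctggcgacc
Fasn: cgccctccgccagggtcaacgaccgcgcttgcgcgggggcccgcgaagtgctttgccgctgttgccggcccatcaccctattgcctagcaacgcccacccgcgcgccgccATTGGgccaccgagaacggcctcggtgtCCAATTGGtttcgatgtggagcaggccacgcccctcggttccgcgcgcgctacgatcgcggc
Insig2: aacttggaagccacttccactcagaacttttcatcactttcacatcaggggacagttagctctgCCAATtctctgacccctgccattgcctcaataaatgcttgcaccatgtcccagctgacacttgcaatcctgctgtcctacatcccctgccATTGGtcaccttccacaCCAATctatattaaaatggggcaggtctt
Acsl1: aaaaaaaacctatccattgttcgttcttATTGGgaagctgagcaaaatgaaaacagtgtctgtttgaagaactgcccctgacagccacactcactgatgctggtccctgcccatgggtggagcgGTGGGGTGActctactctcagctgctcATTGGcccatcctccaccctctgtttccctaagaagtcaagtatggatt
Among the genes that differed between the hairpins, CCAAT was present in a window of all 7 that were higher and of all 4 that were lower and had a window, and in 26 of the 32 genes with a window in all. The GC box was present in 6 of those 7 and 3 of those 4 (26 of 32 in all), the E-box in 1 and 1 (6 of 32) and the sterol element in 2 and 0 (2 of 32).

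**Figure D1:**
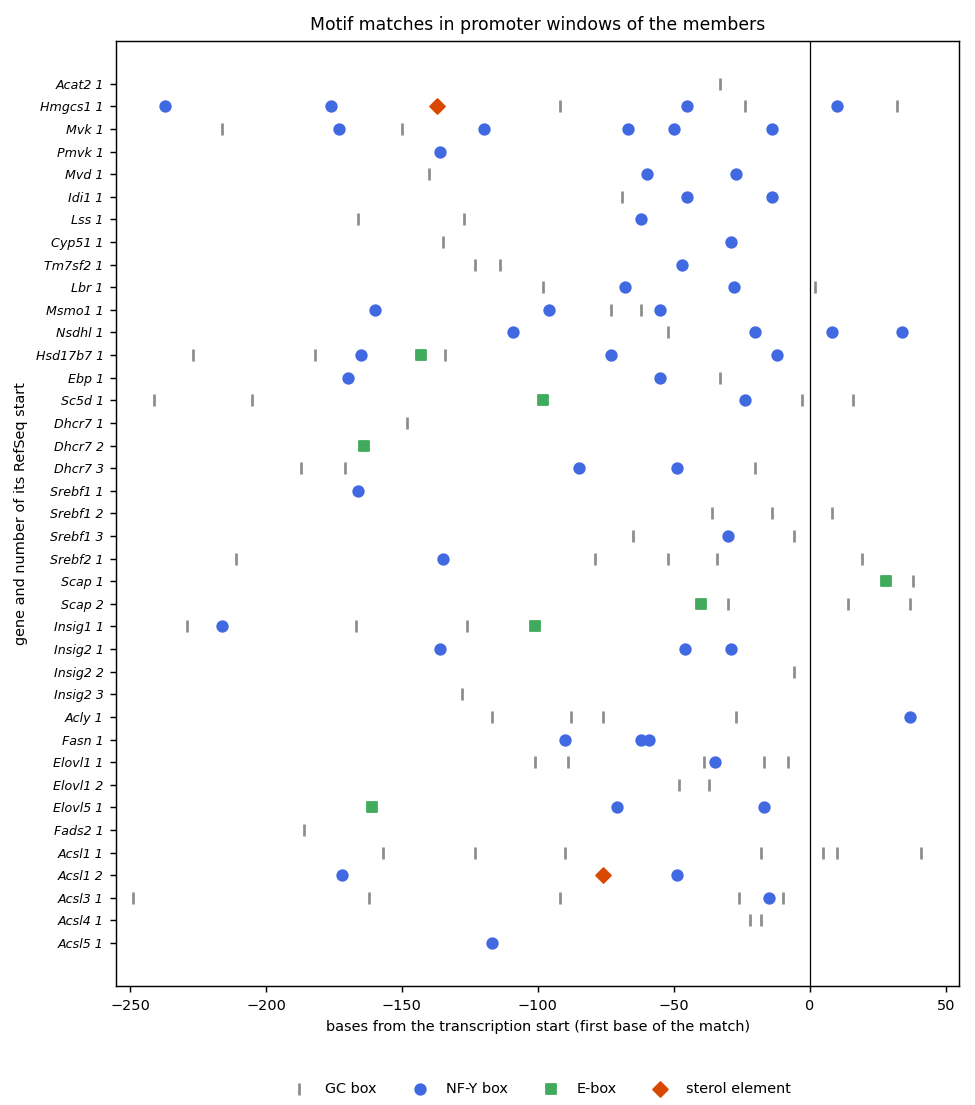
Positions of the 4 searched motifs in the 39 promoter windows that hold any of them (rows, gene and number of its RefSeq start), in bases from the transcription start (x axis, 0 is the start). The 2 sterol elements sit in the windows of Hmgcs1 and of start number 2 of Acsl1, and CCAAT boxes are spread over 27 windows.

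The hairpin differences lay in both directions within the pathway. Higher in TMBIM6sh cells were Hmgcs1, Dhcr7, Fasn, Elovl1 and Acsl1, and lower were Idi1, Insig2, Stard4, Scd2, Fads1 and Acsl5, in both RANKL states. Without RANKL, 5 of the 39 genes were higher and 6 were lower in TMBIM6sh than in NCsh cells at an adjusted p under 0.05 (limma on log2(RPKM + 1), Benjamini-Hochberg over 11040 genes), beside 24.2% of all genes tested (10.4% higher and 13.8% lower). With RANKL, 8 were higher and 7 were lower, beside 28.6% of all genes (8.93% higher and 19.7% lower). After scaling by median ratios these counts were 6 and 6 without RANKL and 9 and 5 with it, and the counts over all genes with RANKL went from 986 higher and 2171 lower to 1560 higher and 1693 lower. The median log2 difference of the 39 genes was -0.02 without RANKL, where that of all genes was -0.02, and -0.06 with RANKL, where that of all genes was -0.07. The 11 genes called without RANKL were all called with it, in the same direction, which is 100% of the first list and 73.3% of the second (over all genes, 72.7% and 61.5%). The 2 comparisons share no library, though they share the fitted spread. In the called genes the libraries of the 2 hairpins never overlapped, and 30 and 27 of the 39 did not overlap in the 2 states, against 61.6% and 66.4% of all genes. With no filter on low values the calls of Idi1 (adjusted p = 0.0566) and Stard4 (0.0504) without RANKL, and of Msmo1, Sc5d, Dhcr7 and Srebf2 with it (0.0508 to 0.0935), were lost. In a fit of the 4 RANKL-treated libraries alone that of Sc5d was lost (0.0596), and with no intensity trend that of Srebf2 (0.0786). The count without RANKL was 7 and 6 without TMBIM6sh library 1 or 2, and the count with RANKL was 8 without NCsh library 1. Cell division genes were lower in TMBIM6sh cells, 19 of 20 without RANKL and 18 of 20 with it, and their part in these differences was not tested.

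**Figure D2:**
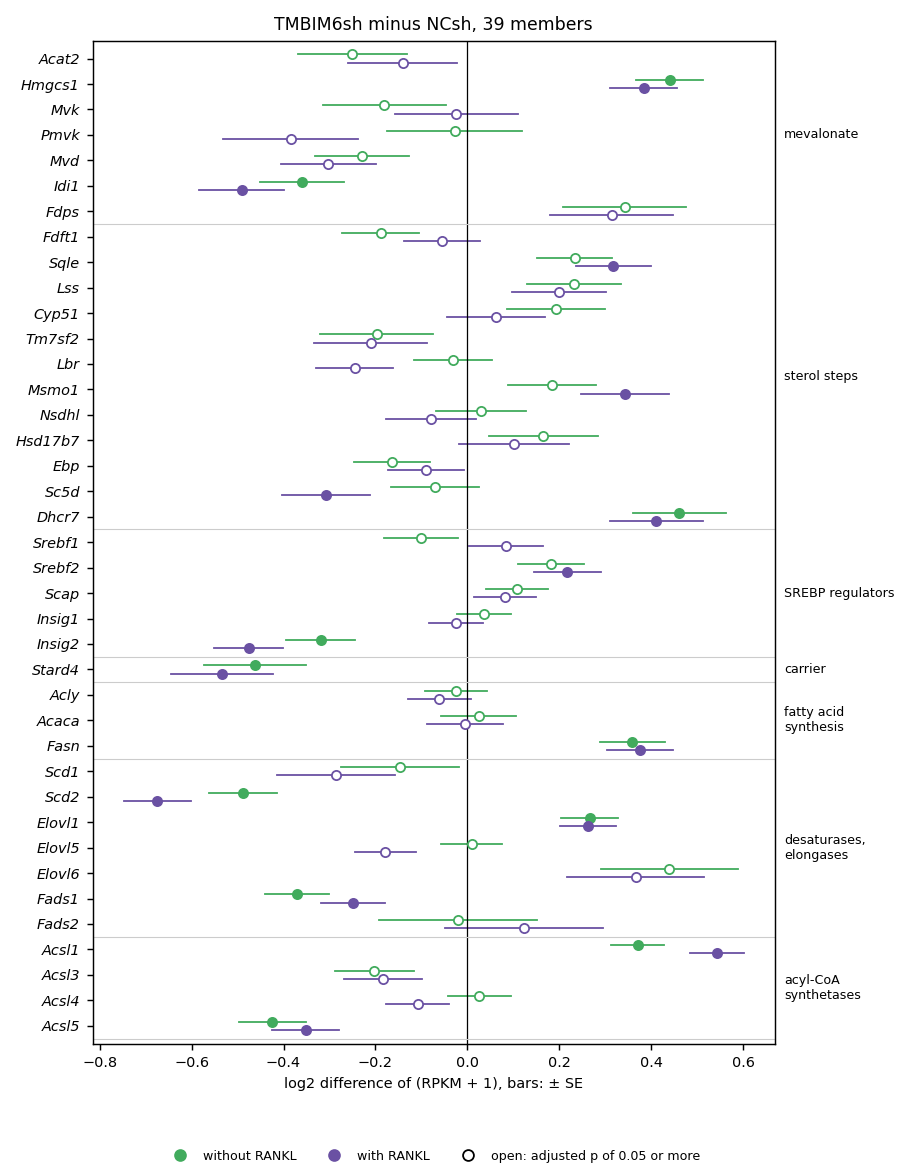
Log2 difference of RPKM + 1, TMBIM6sh minus NCsh (x axis, bars ± SE), for the 39 genes in pathway order, without RANKL (green) and with RANKL (purple), filled where the adjusted p is under 0.05. Filled points lie on both sides of 0, from Scd2 at -0.67 to Acsl1 at 0.54.

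The RANKL responses were called in 5 genes. In NCsh cells 4 of the 39 rose and 0 fell, beside 15.0% of all genes tested (11.0% higher and 3.98% lower). In TMBIM6sh cells 4 rose and 1 fell, beside 15.4% (8.53% higher and 6.89% lower). The same 4 genes rose in both, Acat2, Idi1, Fasn and Acsl1, which is 100% of the first list and 80% of the second (over all genes, 62.1% and 60.3%), and the fifth was Insig2. After scaling by median ratios the counts were 4 higher and 1 lower in NCsh cells and 4 higher and 2 lower in TMBIM6sh cells, and over all genes in NCsh cells 1214 higher and 439 lower became 806 and 827. The median log2 response of the 39 genes was 0.08 in NCsh cells (all genes 0.06) and 0.04 in TMBIM6sh cells (all genes 0.02). The libraries did not overlap for 19 and 25 of the 39 genes, against 56.1% and 58.3% of all genes. With no filter on low values the calls of Acat2 were lost in both hairpins (adjusted p = 0.108 and 0.059), and those of Idi1 and Insig2 in TMBIM6sh cells (0.106 and 0.0651). In fits of the 4 libraries compared, Acat2 and Fasn were lost in NCsh cells (0.0633 and 0.0581) and Idi1 and Insig2 in TMBIM6sh cells (0.0635 and 0.0531). The NCsh count was 1 without RANKL-treated library 1. The TMBIM6sh count was 2 and 1 without untreated library 1 or 2, and 3 and 1 without RANKL-treated library 1 or 2. Of the 20 cell division genes, 19 rose with RANKL in each hairpin, and their part in these responses was not tested.

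**Figure D3:**
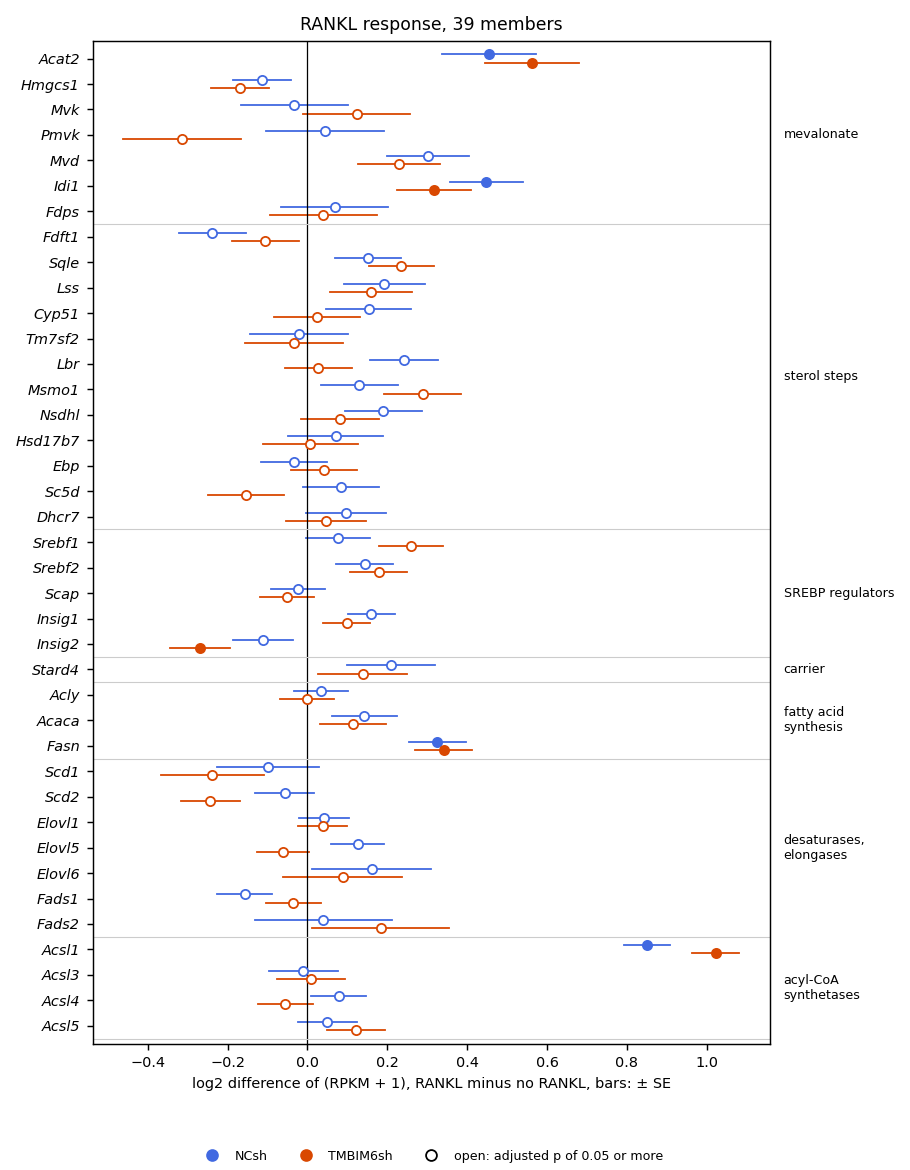
Log2 response to RANKL of RPKM + 1 (x axis, bars ± SE) of the 39 genes in NCsh (blue) and TMBIM6sh (orange) cells, filled where the adjusted p is under 0.05. Acsl1 stands at 0.85 and 1.02, and Acat2, Idi1 and Fasn are the other genes filled in both.

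No difference between the hairpins in the response to RANKL was called. By the interaction term of the limma fit 0 of the 39 were called, beside 0.00906% of all genes (1 of 11040), and 0 had an unadjusted p under 0.05, beside 7.76% of all genes. Acsl1 had the smallest p (0.0647), with a difference of responses of 0.17 on the log2 scale and a 95% interval from -0.01 to 0.36. Altogether 16 genes passed in at least 1 comparison and 23 in none. For 32 of the 39 the hairpin difference had the same sign in both RANKL states. The shares of all genes for these counts were not computed, so they are not read as particular to this list. Over all genes called in both hairpin comparisons, 724 were higher in both, 1218 were lower in both and 4 went opposite ways. The largest ratio of means in any comparison was 2.09, for Acsl1. Fold changes are on the log2(RPKM + 1) scale, which understates the change of genes at low levels.

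**Figure D4:**
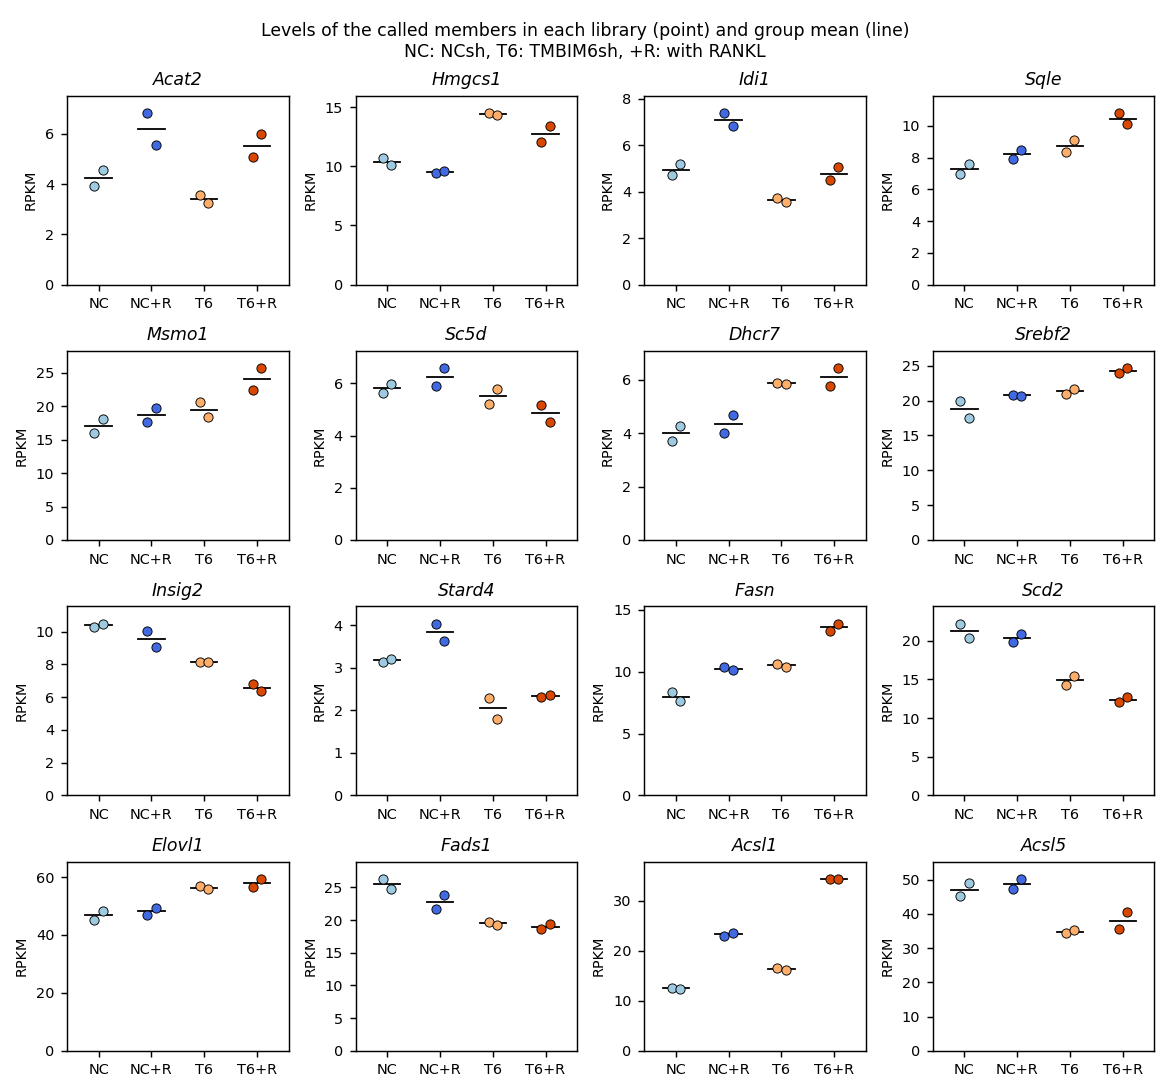
RPKM (y axis, from 0) of the 16 genes that passed the test in at least 1 comparison, in each library (points) and as the mean of the 2 libraries of a group (lines). Acsl1 separates all 4 groups, and Hmgcs1, Dhcr7 and Elovl1 sit higher, and Scd2, Stard4, Insig2 and Acsl5 lower, in both TMBIM6sh groups than in both NCsh groups.

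Of the 7 mevalonate genes, 1 was higher and 1 was lower in TMBIM6sh cells in each RANKL state, and 2 rose with RANKL in each hairpin. Over all genes 24.2% and 28.6% were called for the hairpin, and 11.0% and 8.53% rose with RANKL. Counts this small are not read as particular to a role. Hmgcs1 (chr13:119690351-119708260, mm10) encodes the synthase that makes HMG-CoA, a precursor of mevalonate. Its levels were 10.7 and 10.1 RPKM in NCsh cells and 14.5 and 14.4 RPKM in TMBIM6sh cells without RANKL, and 9.42 and 9.64 RPKM against 12.1 and 13.4 RPKM with it. Every TMBIM6sh library was above every NCsh library. The difference was 0.44 ± 0.07 (SE) on the log2 scale without RANKL (adjusted p = 0.00224) and 0.38 ± 0.07 with it (adjusted p = 0.00395), and it passed under every alternative run. RANKL left Hmgcs1 without a call, at -0.11 in NCsh and -0.17 in TMBIM6sh cells (adjusted p = 0.336 and 0.158).

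Idi1 (chr13:8885606-8892396), the isomerase that makes the allylic unit for isoprenoid chains, was lower with the TMBIM6 hairpin and higher with RANKL. Its levels were 4.70 and 5.18 RPKM in NCsh cells and 3.71 and 3.54 RPKM in TMBIM6sh cells without RANKL, then 7.40 and 6.81 RPKM against 4.49 and 5.05 RPKM with it. The hairpin groups did not overlap in either state, and RANKL-treated TMBIM6sh cells stood within or near the range of untreated NCsh cells. The hairpin difference was -0.36 ± 0.09 without RANKL (adjusted p = 0.0193) and -0.49 ± 0.09 with it (adjusted p = 0.00372). The RANKL response was 0.45 ± 0.09 in NCsh cells (adjusted p = 0.011) and 0.32 ± 0.09 in TMBIM6sh cells (adjusted p = 0.046). The first of these calls was lost without NCsh library 2 or either TMBIM6sh library of the untreated cells (adjusted p = 0.0692 to 0.105), and the NCsh response without library 1 of either NCsh group (0.0518 and 0.0898). The TMBIM6sh response was lost without any 1 of 6 libraries, those of RANKL-treated NCsh and of both TMBIM6sh groups (adjusted p = 0.0617 to 0.225), and with the replicate number as a block (0.0595).

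Acat2 (chr17:12943042-12960725), the cytosolic thiolase that condenses acetyl-CoA, responded to RANKL. The libraries gave 3.93 and 4.57 RPKM in untreated and 6.84 and 5.57 RPKM in RANKL-treated NCsh cells, and 3.56 and 3.26 RPKM against 5.07 and 5.99 RPKM in TMBIM6sh cells. Each RANKL-treated library was above each untreated one. It rose by 0.45 ± 0.12 in NCsh cells (adjusted p = 0.0305) and by 0.56 ± 0.12 in TMBIM6sh cells (adjusted p = 0.0104). The NCsh call was lost without library 1 of either NCsh group (adjusted p = 0.121 and 0.203), and the TMBIM6sh call without library 2 of either TMBIM6sh group (0.0762 and 0.0869). Acat3, a near copy on the same chromosome that was read at 10.6 to 14.2 RPKM, could share reads with Acat2, so the value of Acat2 is uncertain. For the other steps, the kinases Mvk and Pmvk, the decarboxylase Mvd and the farnesyl diphosphate synthase Fdps, no comparison was called. Their levels over all libraries were 3.27 to 4.68 RPKM for Mvk, 3.29 to 6.11 for Pmvk, 7.08 to 11.4 for Mvd and 11.3 to 19.4 for Fdps. Mvd came closest, at -0.30 for the hairpin with RANKL (adjusted p = 0.0533), and the duplicates of Fdps in untreated NCsh cells, 11.3 and 15.9 RPKM, lay far apart.

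The steps that make squalene and turn it into cholesterol held 1 higher gene of 12 without RANKL and 3 higher and 1 lower with it. Over all genes 24.2% and 28.6% were called in these 2 hairpin comparisons. Dhcr7 (chr7:143823167-143848410), the reductase of the last step of one branch, was the one called in both states. Its NCsh libraries were at 3.72 and 4.27 RPKM without RANKL and 4.002 and 4.69 RPKM with it, and its TMBIM6sh libraries at 5.89 and 5.84 RPKM and at 5.77 and 6.44 RPKM. All 4 TMBIM6sh values were above all 4 NCsh values. The difference was 0.46 ± 0.10 (adjusted p = 0.00925) and 0.41 ± 0.10 (adjusted p = 0.0135). It was lost without either untreated TMBIM6sh library (adjusted p = 0.0557 and 0.0509) and, with RANKL, without NCsh library 1 or TMBIM6sh library 2 (0.0998 and 0.0919).

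Sqle (chr15:59315092-59331193), the squalene epoxidase, was called with RANKL. Its levels in NCsh cells were 7.001 and 7.57 RPKM without RANKL and 7.89 and 8.52 RPKM with it, and in TMBIM6sh cells 8.35 and 9.14 RPKM and 10.8 and 10.1 RPKM. The TMBIM6sh libraries were higher in both states. The difference passed with RANKL (0.32 ± 0.08, adjusted p = 0.0171) and not without it (0.23 ± 0.08, adjusted p = 0.0661), and the call was lost without library 1 of either RANKL-treated group (0.11 and 0.103). Msmo1 (chr8:64718145-64733578), a sterol methyl oxidase, had 17.6 and 19.8 RPKM in RANKL-treated NCsh cells and 22.4 and 25.7 RPKM in RANKL-treated TMBIM6sh cells. Without RANKL it had 16.0 and 18.1 RPKM against 20.6 and 18.4 RPKM, with no overlap in either state. The difference with RANKL was 0.34 ± 0.10 (adjusted p = 0.025), lost without NCsh library 1 or TMBIM6sh library 2 (0.161 and 0.16), and without RANKL it was 0.18 (adjusted p = 0.202).

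Sc5d (chr9:42254177-42264300), the sterol desaturase that acts just before Dhcr7, was lower in the same cells. It was read at 5.89 and 6.59 RPKM in RANKL-treated NCsh cells and 5.19 and 4.51 RPKM in RANKL-treated TMBIM6sh cells, against 5.65 and 5.99 RPKM and 5.23 and 5.77 RPKM without RANKL. The groups overlapped without RANKL and not with it. The difference with RANKL was -0.31 ± 0.10 (adjusted p = 0.038), and without RANKL it was -0.07 (adjusted p = 0.651). The call was lost after scaling by median ratios (adjusted p = 0.092) and without any 1 of 4 libraries, both of RANKL-treated NCsh cells and library 2 of each TMBIM6sh group (0.0501 to 0.198). The other 8 genes of these steps had no call, with hairpin differences between Lbr at -0.25 with RANKL (adjusted p = 0.054) and Lss at 0.23 without it (adjusted p = 0.132). Over all libraries Lss, the cyclase, read 1.94 to 3.03 RPKM, Cyp51, a demethylase, 3.22 to 4.53, and the sterol reductases Tm7sf2 and Lbr 2.57 to 3.84 and 5.17 to 6.78. The later enzymes Nsdhl, Hsd17b7 and Ebp read 5.54 to 7.19, 1.51 to 1.98 and 11.1 to 13.6 RPKM. Fdft1, the squalene synthase, shares 773 bases of its span with Ctsb on the opposite strand, which was read at 1482 to 2078 RPKM. Counting did not separate the strands, so reads of the 2 genes cannot be told apart there and the level of Fdft1, 22.3 to 31.3 RPKM, is uncertain. The span of Lss shares 11269 bases with 4930483K19Rik on the opposite strand, read at 0.654 to 1.15 RPKM, so the low level of Lss is uncertain too.

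Among the 5 regulators, Insig2 was lower with the TMBIM6 hairpin in both RANKL states and Srebf2 was higher in 1 of them. Insig2 (chr1:121304353-121332589), a retention protein of the SREBP complex, was read at 10.3 and 10.5 RPKM in untreated and 10.0 and 9.10 RPKM in RANKL-treated NCsh cells. In TMBIM6sh cells it was at 8.13 and 8.13 RPKM and at 6.78 and 6.39 RPKM, below every NCsh library. The hairpin difference was -0.32 ± 0.08 without RANKL (adjusted p = 0.0136) and -0.48 ± 0.08 with it (adjusted p = 0.00151), and the second passed under every alternative run. With RANKL it fell by 0.27 ± 0.08 in TMBIM6sh cells (adjusted p = 0.0403), while the response in NCsh cells, -0.11, was not called (adjusted p = 0.363). The difference between those responses was -0.16 (adjusted p = 0.735). The call without RANKL was lost without NCsh library 2 or either TMBIM6sh library (adjusted p = 0.0529 to 0.0753), and the RANKL call without any 1 of the 4 TMBIM6sh libraries (0.0836 to 0.178). Its paralog Insig1, at 23.3 to 27.3 RPKM over all libraries, had no call. Insig1 read 23.3 and 24.1 RPKM, then 25.9 and 27.3 RPKM with RANKL, in NCsh cells, and 24.5 and 24.2 RPKM, then 26.1 and 26.2 RPKM, in TMBIM6sh cells. Its hairpin differences were 0.04 without RANKL (95% interval -0.10 to 0.17) and -0.03 with it (-0.16 to 0.11).

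Srebf2 (chr15:82147269-82204960), the SREBP gene most tied to cholesterol, was at 20.0 and 17.5 RPKM in untreated and 20.8 and 20.7 RPKM in RANKL-treated NCsh cells. In TMBIM6sh cells it was at 21.0 and 21.7 RPKM and at 23.9 and 24.7 RPKM, above the NCsh libraries of the same state. The difference with RANKL, 0.22 ± 0.07, lay just inside the threshold (adjusted p = 0.0479) and was lost without any 1 of the 6 libraries of RANKL-treated NCsh and both TMBIM6sh groups (0.0757 to 0.169), with a pseudocount of 0.1 (0.0504) and with the replicate number as a block (0.0576). Without RANKL the difference was 0.18 (adjusted p = 0.0974), and it passed without NCsh library 1 (0.27, adjusted p = 0.0217). Srebf1, the gene most tied to fatty acids, had 13.9 and 13.04 RPKM, then 15.1 and 13.5 RPKM with RANKL, in NCsh cells. It had 12.4 and 12.6 RPKM, then 14.4 and 16.0 RPKM, in TMBIM6sh cells, where its RANKL response was 0.26 ± 0.08 (adjusted p = 0.0579, and 0.0496 and 0.0487 without either untreated NCsh library). Its hairpin differences, -0.10 and 0.08, were not called, and the libraries overlapped with RANKL. The span of Srebf1 shares 112 bases with Rai1 on the opposite strand, which was read at 3.30 to 5.27 RPKM. Scap, the escort of the SREBPs, had 13.3 and 12.3 RPKM, then 12.7 and 12.4 RPKM, in NCsh cells, and 13.7 and 14.0 RPKM, then 13.1 and 13.5 RPKM, in TMBIM6sh cells. The TMBIM6sh libraries of Scap were the higher ones in both states, by 0.11 and 0.08 on the log2 scale (adjusted p = 0.281 and 0.401).

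Stard4, a soluble carrier that moves cholesterol between membranes, was lower with the TMBIM6 hairpin. Its levels were 3.14 and 3.22 RPKM in untreated and 4.04 and 3.63 RPKM in RANKL-treated NCsh cells, and 2.29 and 1.80 RPKM and 2.32 and 2.35 RPKM in TMBIM6sh cells. All 4 TMBIM6sh values were below all 4 NCsh values. The difference was -0.46 ± 0.11 without RANKL (adjusted p = 0.0148) and -0.53 ± 0.11 with it (adjusted p = 0.00626). The first was lost without NCsh library 2 or TMBIM6sh library 2 (adjusted p = 0.0597 and 0.115) and the second without NCsh library 1 (0.0515).

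Of the 3 genes that make palmitate, 1 was called, in both hairpin comparisons and both RANKL responses. Over all genes 24.2% and 28.6% were called for the hairpin and 15.0% and 15.4% for RANKL. Fasn (chr11:120805958-120824547), the fatty acid synthase, was read at 8.34 and 7.65 RPKM in untreated and 10.4 and 10.2 RPKM in RANKL-treated NCsh cells. In TMBIM6sh cells it was at 10.6 and 10.4 RPKM and at 13.3 and 13.9 RPKM. RANKL-treated NCsh cells and untreated TMBIM6sh cells were thus at a like level, and cells with both were highest. The hairpin difference was 0.36 ± 0.07 without RANKL (adjusted p = 0.00567) and 0.38 ± 0.07 with it (adjusted p = 0.00387), and passed under every alternative run. The RANKL response was 0.33 ± 0.07 in NCsh cells (adjusted p = 0.0147) and 0.34 ± 0.07 in TMBIM6sh cells (adjusted p = 0.0102). The NCsh response was lost without untreated library 2 or either RANKL-treated library (adjusted p = 0.0612 to 0.0932), and the TMBIM6sh response without either untreated library or RANKL-treated library 2 (0.0567 to 0.0797). Acly, which supplies cytosolic acetyl-CoA from citrate, was at 41.6 to 46.9 RPKM and Acaca, the carboxylase that makes malonyl-CoA, at 4.76 to 5.59 RPKM. Their hairpin differences lay between -0.06 and 0.02, with 95% intervals inside -0.21 to 0.21.

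Among the desaturases and elongases 1 of 7 was higher and 2 of 7 were lower in TMBIM6sh cells in each RANKL state, beside 24.2% and 28.6% of all genes called. Scd2 (chr19:44293676-44306862), a stearoyl-CoA desaturase that makes monounsaturated fatty acids, had the largest hairpin difference of the 39 genes on the log2(RPKM + 1) scale. By the ratio of means that of the low gene Elovl6 without RANKL was larger (1.80-fold). Elovl6 passed the filter only through its TMBIM6sh libraries, so its ratio is not set against that of Scd2. Scd2 was read at 22.2 and 20.3 RPKM in untreated and 19.9 and 20.9 RPKM in RANKL-treated NCsh cells, against 14.2 and 15.5 RPKM and 12.1 and 12.7 RPKM in TMBIM6sh cells. Every TMBIM6sh library was below every NCsh library. The difference was -0.49 ± 0.07 without RANKL (adjusted p = 0.0013) and -0.67 ± 0.07 with it (adjusted p = 0.000201), and passed under every alternative run. RANKL gave -0.06 in NCsh cells and -0.24 in TMBIM6sh cells (adjusted p = 0.647 and 0.0523). Its neighbour Scd1, 87588 bases away on chromosome 19, was far lower, at 0.749 to 1.47 RPKM, and its hairpin differences of -0.15 and -0.29 were not called (adjusted p = 0.45 and 0.124).

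Fads1 (chr19:10182888-10196872), a front-end desaturase of polyunsaturated fatty acids, was also lower. It had 26.3 and 24.7 RPKM in untreated and 21.7 and 23.9 RPKM in RANKL-treated NCsh cells, and 19.7 and 19.3 RPKM and 18.6 and 19.4 RPKM in TMBIM6sh cells. All 4 TMBIM6sh values were below all 4 NCsh values. The difference was -0.37 ± 0.07 without RANKL (adjusted p = 0.00412), which passed under every alternative run. With RANKL it was -0.25 ± 0.07 (adjusted p = 0.0233), lost after scaling by median ratios (0.0751) and without NCsh library 2 or either TMBIM6sh library (0.0566 to 0.162). Fads2, which lies 81385 bases from it and works in the same chain, was near the filter at 0.809 to 1.48 RPKM and had no call.

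Elovl1 (chr4:118428093-118432952), an elongase of saturated very long chains, had the highest mean level of the 39 genes, 52.3 RPKM over all libraries. It was read at 45.2 and 48.3 RPKM in untreated and 46.8 and 49.4 RPKM in RANKL-treated NCsh cells, and at 56.8 and 55.9 RPKM and 56.5 and 59.4 RPKM in TMBIM6sh cells. The TMBIM6sh libraries were above all NCsh libraries. The difference was 0.27 ± 0.06 without RANKL (adjusted p = 0.0126) and 0.26 ± 0.06 with it (adjusted p = 0.0112). The first was lost without either TMBIM6sh library (adjusted p = 0.0924 and 0.0708), and the second without NCsh library 1 or TMBIM6sh library 2 (0.0949 and 0.0665). Its span shares 52 bases with Cdc20 on the opposite strand, which was read at 3.88 to 15.3 RPKM and was lower in TMBIM6sh cells. Elovl6, the elongase of palmitate, was low, at 0.585 and 0.950 RPKM in untreated NCsh cells and 1.46 and 1.31 RPKM in untreated TMBIM6sh cells, and 0.984 and 0.948 RPKM against 1.36 and 1.73 RPKM with RANKL. Only its TMBIM6sh libraries reached 1 RPKM, so Elovl6 passed the filter through the side where it was higher. Its hairpin differences are therefore given as a description only. Its difference of 0.44 without RANKL had a wide error (0.15) and missed the threshold (adjusted p = 0.0594), as did that with RANKL (0.37, adjusted p = 0.0947). Elovl5, an elongase of polyunsaturated chains, was at 17.9 to 21.7 RPKM and had no call.

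Acyl-CoA synthetases attach fatty acids to coenzyme A before they are used. Acsl1 (chr8:46471037-46536051) was the 1 gene of the 39 that passed in all 4 comparisons under every alternative run. It was read at 12.6 and 12.4 RPKM in untreated and 23.0 and 23.5 RPKM in RANKL-treated NCsh cells. In TMBIM6sh cells it was at 16.6 and 16.2 RPKM and at 34.3 and 34.4 RPKM. The 4 groups did not overlap, and the duplicates of each lay close together. RANKL raised it by 0.85 ± 0.06 in NCsh cells (adjusted p = 5.03e-05) and by 1.02 ± 0.06 in TMBIM6sh cells (adjusted p = 1.11e-05). The hairpin difference was 0.37 ± 0.06 without RANKL (adjusted p = 0.0017) and 0.54 ± 0.06 with it (adjusted p = 0.000189).

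Acsl5 (chr19:55253369-55296628), a synthetase of the same family, went the other way between the hairpins and did not respond to RANKL at the threshold. It had 45.4 and 48.9 RPKM in untreated and 47.4 and 50.2 RPKM in RANKL-treated NCsh cells, and 34.5 and 35.2 RPKM and 35.7 and 40.4 RPKM in TMBIM6sh cells. All 4 TMBIM6sh values were below all 4 NCsh values. The difference was -0.42 ± 0.07 without RANKL (adjusted p = 0.00284), which passed under every alternative run, and -0.35 ± 0.07 with it (adjusted p = 0.00632), lost without NCsh library 2 (0.0526). The mean level of Acsl5 was above that of Acsl1 in each group on the per-length RPKM scale, and the 2 came closest in RANKL-treated TMBIM6sh cells (38.1 and 34.4 RPKM). Acsl3, at 3.86 to 4.82 RPKM, and Acsl4, at 37.9 to 42.8 RPKM, had no call.

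Other genes of sterol and isoprenoid synthesis, outside the 39, were also listed. Of the 8 tested and reported here, 2 were lower in TMBIM6sh cells in each RANKL state, beside 13.8% of all genes lower without RANKL and 19.7% with it. For this and the lists that follow, the shares of all genes called in either direction were 24.2% and 28.6% for the hairpin and 15.0% and 15.4% for RANKL. Cyb5b, a cytochrome that supplies electrons, was lower in both, at -0.28 and -0.37 (adjusted p = 0.0143 and 0.0028). Its partner Cyb5r3 was lower without RANKL (-0.20, adjusted p = 0.0457, and -0.11 with it, adjusted p = 0.202). Pdss1, of ubiquinone synthesis, was lower with RANKL (-0.34, adjusted p = 0.0364, and 0.11 without it, adjusted p = 0.485). RANKL raised 1 and lowered 1 of the 8 in NCsh cells, Cyb5b at 0.36 and Por at -0.22 (adjusted p = 0.00637 and 0.0426), and raised 2 in TMBIM6sh cells, Cyb5r3 by 0.29 and Cyb5b by 0.26 (adjusted p = 0.0122 and 0.025).

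The 16 genes of SREBP transport, cleavage and sterol-regulated degradation had 4 higher and 4 lower without RANKL and 3 higher and 5 lower with it, beside 24.2% and 28.6% of all genes called. Erlin1, a scaffold of endoplasmic reticulum degradation, was higher by 0.83 and 0.92 (adjusted p = 0.000168 and 8.40e-05), and its partner Erlin2 lower, at -0.27 and -0.45 (adjusted p = 0.00972 and 0.000519). Mbtps2, the protease that makes the final SREBP cut, was lower, at -0.49 and -0.54 (adjusted p = 0.00268 and 0.00133), as was the coat gene Sec24d, at -0.30 and -0.32. Mbtps1, the protease of the first cut, rose with RANKL by 0.24 in NCsh cells and 0.26 in TMBIM6sh cells (adjusted p = 0.0428 and 0.0282). Rnf145, a ubiquitin ligase, fell with RANKL in TMBIM6sh cells (-0.33, adjusted p = 0.0455).

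In cholesterol uptake, storage and transport, 2 of the 12 genes reported here were higher and 4 lower without RANKL, and 2 were higher and 5 lower with it. Npc1, which exports cholesterol from lysosomes, was higher by 0.49 and 0.50 (adjusted p = 0.00158 and 0.00126). The ester hydrolase Nceh1 was lower, at -0.62 and -0.70 (adjusted p = 0.000108 and 4.61e-05), and the lysosomal lipase Lipa, at -0.37 and -0.42. Gramd1a, a sterol transporter, was higher by 0.30 and 0.32 (adjusted p = 0.0132 and 0.00829), and Soat2, a cholesterol acyltransferase, was lower, at -0.38 and -0.87 (adjusted p = 0.0367 and 0.00053). In TMBIM6sh cells RANKL lowered 4 of the 12, Soat1 (-0.29), Nceh1 (-0.26), Lrp1 (-0.36) and Gramd1b (-0.28, adjusted p from 0.0134 to 0.0476).

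Of 18 other fatty acid synthesis genes tested, 4 were higher and 4 lower without RANKL, and 3 and 4 with it. The dehydratase genes Hacd3 and Hacd4, which act in chain elongation, were lower, at -0.87 and -0.92 without RANKL and at -0.63 and -0.96 with it (adjusted p from 3.25e-05 to 0.000431). Acss2, which makes acetyl-CoA from acetate, was lower in both states, at -0.49 and -0.44 (adjusted p = 0.00804 and 0.0109). Acss1 (0.54 and 0.60) and the NADPH source Me1 (0.29 and 0.33) were higher in both, and the citrate carrier Slc25a1 was lower without RANKL (-0.28) and not called with it (-0.09). RANKL raised Hacd3 by 0.36 in NCsh cells and 0.60 in TMBIM6sh cells and lowered Hacd4 (-0.39 and -0.43). It also lowered Slc25a1 in NCsh cells (-0.26) and Hsd17b12, an elongation reductase, in TMBIM6sh cells (-0.22).

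Genes that use or export the products were also listed. Of 17 glycerolipid synthesis genes, 0 were higher and 1 lower without RANKL (Agpat5, -0.41), and 2 and 2 with it (Dgat2 at 0.50, Agpat3 at 0.25, Agpat5 at -0.57 and Gpat3 at -0.51). Without RANKL, Dgat2, Agpat3 and Gpat3 were not called, at 0.23, 0.16 and -0.43. Of 8 genes of the liver X receptor and lipid efflux, 4 were lower without RANKL (Abcg1 -0.48, Nr1h3 -0.45, Apoe -0.50 and Lpcat3 -0.45) and 3 with it (Abcg1 -0.55, Apoe -0.51 and Lpcat3 -0.45, with Nr1h3 at -0.09 not called), and 0 were higher. Over all genes 13.8% and 19.7% were lower in these 2 comparisons. RANKL raised Nr1h3, the receptor gene, by 0.49 and 0.85 and lowered Apoe (-0.57 and -0.58), and it lowered Mylip in TMBIM6sh cells (-0.26). Of 15 fatty acid oxidation genes, 1 was lower without RANKL (Acadl, -0.28) and 2 with it (Acadl -0.32 and Cpt1a -0.30, which was at -0.13 without RANKL), and Cpt1a, the carnitine transferase that gates entry to mitochondria, fell with RANKL (-0.23 and -0.40). Of the glycerolipid synthesis genes, RANKL lowered Cept1 and Agpat2 in TMBIM6sh cells, both at -0.25 on the log2 scale.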

How the data were processed

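RNA-seq of 8 libraries was analysed from 1 table of RPKM values. Per the file header, the authors counted reads over exons of RefSeq genes in mm10 with HOMER, taking both strands and merging transcripts of a gene, and deposited RPKM with no counts. Column heads say FPKM. The submitters' processing notes name HISAT2, HOMER and DESeq2, and versions are not given in the sources used here. DESeq2 was not used here. Because strands were pooled and copies of a gene can share reads, overlapping and near-identical genes are uncertain.

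Values were tested as log2(RPKM + 1) with limma 3.58.1 (R 4.3.3) with an intensity trend, 1 mean per group, all 8 libraries in 1 fit (4 residual degrees of freedom), genes with at least 1 RPKM in at least 2 libraries (11040 of 24940), and Benjamini-Hochberg adjustment over those genes with a threshold of 0.05. The 5 comparisons are the RANKL response in each hairpin, the hairpin difference in each RANKL state, and the difference of responses. An exact permutation test of 2 against 2 libraries cannot go below 0.333 (two-sided) and was not used. Depth was recovered from value steps: 2278 to 2492 values a library were checked and all were whole reads within 0.1 reads. Promoter letters were searched with Python 3.11.15.

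The members and gene lists were chosen with earlier results of these data known. Values in every library are given for members past the threshold and for the 5 SREBP regulators, and other members by range. From each companion list up to 4 genes per comparison with the smallest p among those past the threshold are named. Some genes of 2 companion lists, sterol and isoprenoid synthesis and cholesterol uptake, are not reported here, and the counts of those lists leave them out. Alternatives were run for the member counts and for the called members and regulators, not for companion genes. They were pseudocounts of 0.1 and 0.5, no filter, a filter of 5 RPKM, median-ratio scaling, the replicate number as a block, no trend, a fit of the 4 libraries compared, and leaving out each library.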

Additional observations from a re-analysis of the deposited data

Results flagged for a closer look

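Elovl5, the elongase of polyunsaturated chains, was read higher with RANKL in NCsh cells and lower in TMBIM6sh cells, and neither response was called. The libraries did not overlap in either hairpin, which also held for 56.1% and 58.3% of all genes. It was read at 19.2 and 18.6 RPKM in untreated and 19.8 and 21.7 RPKM in RANKL-treated NCsh cells, a log2 difference of 0.13 (adjusted p = 0.238). In TMBIM6sh cells it was at 19.3 and 18.8 RPKM untreated and 18.6 and 17.9 RPKM with RANKL, a log2 difference of -0.0612 (adjusted p = 0.614). Tested by the interaction term of the limma fit, the responses differed by -0.19 (unadjusted p = 0.0747, adjusted p = 0.649), so the difference did not pass.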

How the results depend on the processing

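Over the alternatives, 889 values of single genes were recomputed. Of these, 800 stayed on their side of the threshold and, where not called, moved by at most the standard error of the reported difference. Another 78 kept their direction and no longer passed, and 4 came to pass. The other 7 stayed without a call and moved by more than that standard error, and 0 called values reversed. Signs changed for 6 values, all of results without a call and at most 0.0352 in size as reported. For the RANKL response in NCsh cells, 4 genes were called as reported, 2 in the fit of the 4 libraries compared, and 1 to 4 with a library left out. In TMBIM6sh cells, 5 were called as reported, 2 with no filter, 3 in the fit of the 4 libraries compared, and 1 to 7 with a library left out. For the hairpin difference without RANKL (11 called) leaving out a library gave 6 to 12, with 7 and 6 without TMBIM6sh library 1 or 2, and with RANKL (15 called) it gave 8 to 17, the lowest without NCsh library 1. The difference of responses gave 0 throughout. Where leaving out a library left a group with 1 sample, that sample is assumed to vary like the other groups. The replicate block gave 4, 4, 11, 14 and 0 calls in the 5 comparisons. Same-numbered libraries did not deviate together (correlations of -0.07 to 0.06 over 6 pairs of groups), so the numbers were not taken as pairs. Reads of the low genes (32 for Fads2 in 1 library) limit their precision.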
